A study of Mus musculus with 24 samples.

Results

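Mitochondrial proteases and chaperones were examined in mouse liver as a set of 10 genes of the 24411 that were counted. The genes were chosen by symbol: Clpx, Clpp, Lonp1, Hspd1, Hspe1, Hspa9, Trap1, Spg7, Afg3l2 and Yme1l1. Clpx was selected on its higher level in HKO livers, so its values in HKO and in the AAV8-TBG-Null controls are given as a description with no test. The other 9 were set beside it as the rest of the mitochondrial protein quality system. All 10 had enough reads to be tested in each comparison.

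RNA of whole livers was sequenced in 24 libraries. Male mice of 2.5 months carried loxP sites in both alleles of E2f7 and E2f8, which encode atypical repressors of the E2F family, and the R26R mTmG reporter. The paper gives a mixed, mostly FVB background for LKO mice and no separate background for HKO mice. In the LKO cohort, Alb-Cre deleted both genes in the liver lineage for life, and littermates without Cre were the controls. In the HKO cohort, AAV8-TBG-Cre deleted them at 2 months from the hepatocyte promoter TBG, and the controls received AAV8-TBG-Null. All mice were fasted overnight. The 0 h livers are from untreated single mice, 3 HKO and 3 AAV8-TBG-Null controls, and 4 LKO and 4 controls. At 12, 24, 48, 72 and 96 h after 300 mg/kg acetaminophen (APAP), a drug whose oxidised metabolite injures hepatocyte mitochondria, RNA of 3 mice was pooled into 1 library per genotype and time in the LKO cohort. The time of day of collection is not given in the sources used here. Whole-liver RNA cannot tell fewer cells of a type from less RNA per cell.

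Most mitochondrial proteins are made in the cytosol, imported unfolded and then folded or degraded inside the organelle. In the matrix, Hspa9 (mortalin) pulls in and holds the incoming chain, the Hspd1 (HSP60) and Hspe1 (HSP10) chamber folds it, and Trap1 is an HSP90 relative. Lonp1 degrades oxidised and misfolded matrix proteins, and Clpx is the unfoldase that feeds the Clpp peptidase. Clpx also acts on the first enzyme of haem synthesis. In the inner membrane, Spg7 (paraplegin) and Afg3l2 form the matrix-facing m-AAA protease, and Yme1l1 is the i-AAA protease that faces the intermembrane space. When misfolded proteins build up in the matrix, cells can raise chaperone and protease transcripts together, which is known as the mitochondrial unfolded protein response.

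Reads on genes ranged from 12665686 to 19499897 per library, with a median of 16500386, and 3 counts, taken as the lowest detectable level, corresponded to 0.154 to 0.237 CPM, the counts scaled to a common library size. All members were far above this limit. CPM in the text were scaled with edgeR's TMM factors over the 24 libraries. The summed level of 6 hepatocyte markers was 46200 to 96700 CPM in the knockout mice and 70200 to 119000 CPM in the controls at 0 h. Counts of E2f7 were 2 to 22 in the single mice, and counts of E2f8 were 464 to 1310 in HKO against 235 to 382 in the AAV8-TBG-Null controls. Reads outside the deleted part of these genes are counted too, so the gene counts do not check the genotype.

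Promoter sequences from the RefSeq table (build GRCm38.p6) were searched for 8 of the 10 members. Those of Hspa9 and Afg3l2 were left out by rule and not searched, so the motif counts below do not cover them. Parts of the searched sequences are shown here because Clpx was the member chosen for its HKO level, while Hspd1 and Hspe1 lie head to head and share a promoter. Clpx lies on chromosome 9 (65294260 to 65330658, plus strand, GRCm38). The 250 bases before its start site, chr9:65294010-65294259 on the plus strand, held the NRF1 core GCATGCGC, 86 bases before the start site, which is shown in capitals.
Clpx: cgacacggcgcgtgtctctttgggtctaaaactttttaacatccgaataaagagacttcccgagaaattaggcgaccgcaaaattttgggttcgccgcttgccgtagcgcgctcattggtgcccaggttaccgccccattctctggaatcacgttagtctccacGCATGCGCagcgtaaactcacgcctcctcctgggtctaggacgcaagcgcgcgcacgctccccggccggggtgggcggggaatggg
Hspd1 (chromosome 1, 55077835 to 55088243, minus strand) and Hspe1 (55088132 to 55091307, plus strand) are transcribed in opposite directions from neighbouring start sites. The 2 Hspd1 start sites in the table lie 95 and 216 bases from that of Hspe1. The heat shock element core GAANNTTC was found in the stretch between the Hspe1 start site and the more distant Hspd1 start site, at chr1:55088053-55088082, within a UTR exon of Hspd1. The element is in capitals, read on the Hspe1 strand.
Hspe1: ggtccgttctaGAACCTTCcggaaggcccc
The E-box CACGTG, the element bound by the clock proteins CLOCK and BMAL1, was found before Lonp1 (chr17:56626922-56626951, minus strand) and in a window of Hspd1 (chr1:55088306-55088335, minus strand, in a UTR exon of Hspe1). It is shown in capitals in both.
Lonp1: cgcgagcgtcatCACGTGcgcaaacggggg
Hspd1: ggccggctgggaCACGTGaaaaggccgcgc
Both strands were searched in windows of 300 bases. Of 32851 promoter windows of this length, 7.15% held the E-box, 7.86% the heat shock element core and 2.71% the NRF1 core. The Clpx window held no E-box. None of the 9 windows of these 8 members held the D-box TTANGTAA (2.32% of all windows) or the RORE core TAGGTCA (2.61%). None held the E2F motifs TTTCCCGC (1.07%) or TTTGGCGC (0.514%), or the CHOP and ATF4 element TGATGNAA (3.97%). The GC box GGGCGG was in 8 of the 9 windows (35.7% of all windows) and the CCAAT box in 3 of 9 (37.4%). A match is a description of the letters in the window.

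Levels of the members differed widely in untreated livers. Per kb of exon, Hspd1 was highest in the LKO-cohort controls at 245 ± 39.5 CPM per kb (SD, n = 4). Hspa9 followed at 149 ± 5.58, Hspe1 at 124 ± 28.3 and Trap1 at 90.3 ± 3.89 CPM per kb. The matrix proteases were lower, with Lonp1 at 53 ± 9.02, Clpp at 44.7 ± 6.45 and Clpx at 42.6 ± 11.9 CPM per kb. The 3 inner membrane proteases were lowest, with Spg7 at 14.6 ± 1.32, Yme1l1 at 11.8 ± 3.93 and Afg3l2 at 10.5 ± 1.29 CPM per kb. The values of single mice overlapped between neighbours in this order, except between Hspd1 and Hspa9, between Trap1 and Lonp1, and between Clpx and Spg7. In HKO livers the order was the same in outline, but Clpx, at 119 ± 16.7 CPM per kb (n = 3), came after Hspa9 and above Trap1 and Hspe1 without overlap.

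In HKO livers, Clpx had the largest difference from its controls among the 10 members. Clpx was at 147, 131 and 114 CPM in the 3 AAV8-TBG-Null controls and at 386, 483 and 378 CPM in the 3 HKO mice. The groups did not overlap, and the difference was 3.18-fold (log2 fold change 1.67, SE 0.136). This contrast chose the gene, so no test is given. Clpp, the peptidase that works with Clpx, was at 42.6, 41.2 and 49.5 CPM in the controls and at 51.2, 49.5 and 40.7 CPM in HKO. These groups overlapped. As a result the ratio of Clpx to Clpp, per kb of exon, was 0.809 to 1.21 in the controls and 2.64 to 3.42 in HKO, a difference that follows from the choice of Clpx.

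**Figure D1:**
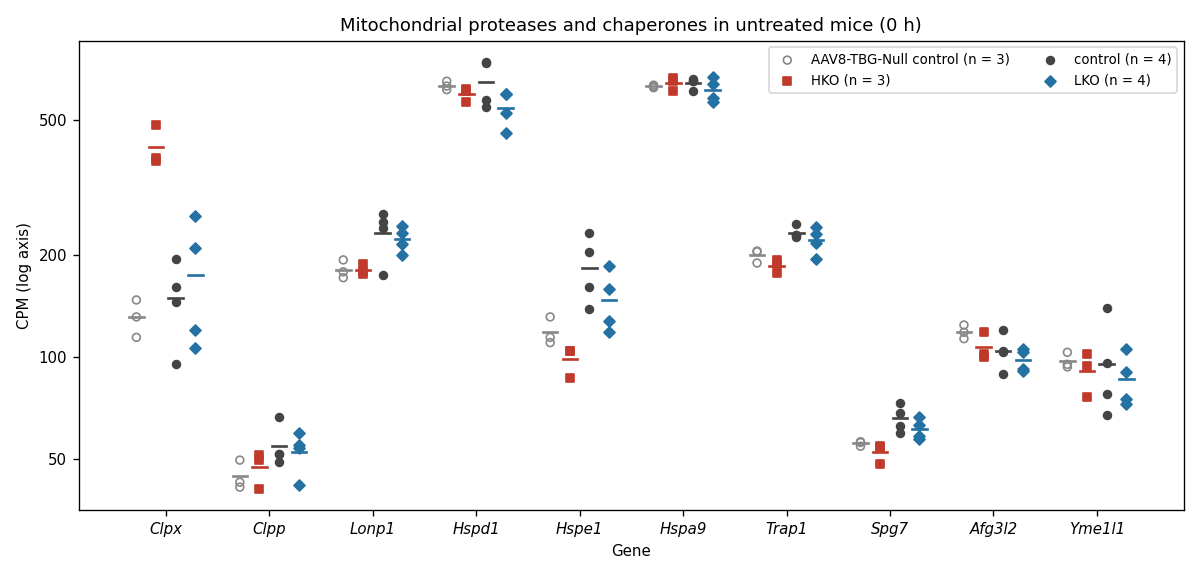
CPM (log axis) of the 10 members in single untreated mice of the 4 groups at 0 h; points are mice and bars are group means. The 3 HKO mice sit at 378 to 483 CPM for Clpx, above the other 11 mice, and Hspe1 has the next widest spread over the 14 mice (2.67-fold).

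None of the other 9 members passed the test in HKO. In edgeR's quasi-likelihood test with Benjamini-Hochberg adjustment, genes with an adjusted p under 0.05 that were 1.5-fold or more apart were called, and 0.96% of 12397 genes were called. Of the 9 members, 0 were called, 1 had an unadjusted p under 0.05, and DESeq2 also called 0. Their log2 fold changes ranged from -0.26 to 0.09. Hspe1 had the lowest value (log2 fold change -0.26, SE 0.115, adjusted p = 0.374). Hspe1 was at 131, 110 and 114 CPM in the AAV8-TBG-Null controls and at 86.5, 104 and 104 CPM in HKO, with no overlap. Spg7, a subunit of the m-AAA protease, was at 54.4, 56.1 and 55.8 CPM in the controls and at 54.3, 54.1 and 48.1 CPM in HKO, also without overlap but 1.06-fold apart. Over all genes, groups of this size did not overlap for 18% of those tested, so 2 of 9 is close to the background. The chaperones Hspd1 (log2 fold change -0.08, SE 0.0931), Hspa9 (0.03, SE 0.0907) and Trap1 (-0.10, SE 0.0892) were within 1.07-fold of the controls, and so was Lonp1 (0.00, SE 0.0908). The remaining inner membrane proteases, Afg3l2 (-0.15, SE 0.0976) and Yme1l1 (-0.09, SE 0.122), were within 1.11-fold.

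The wider mitochondrial quality system had no call by edgeR in HKO. A list of 51 further genes held co-chaperones such as Dnaja3 and Grpel1, other mitochondrial peptidases, protease scaffolds, stress regulators such as Atf4, Atf5 and Ddit3, and reported protease substrates. Of the 47 that were in the files and tested, 0 were called in HKO by edgeR, 9 had an unadjusted p under 0.05, and DESeq2 called 4. Over all genes 12.9% had such an unadjusted p and DESeq2 called 2.67%. Their median log2 fold change was -0.0745 and that of all genes was 0.0116. The 4, named after their values were seen, were Atf5, Pdk4, Alas1 and Immp2l. In edgeR the log2 fold change was 1.23 for Pdk4 (SE 0.317, adjusted p = 0.123) and -0.68 for Immp2l (SE 0.138, adjusted p = 0.0569). Of 10 stress regulators, Atf5 among them, 3 had a log2 fold change above 0. Atf4 (-0.07, SE 0.107) and Ddit3 (-0.18, SE 0.19) were below 0 and not called. Atf5, the factor linked to the mitochondrial unfolded protein response, was at 427, 346 and 312 CPM in the AAV8-TBG-Null controls and at 621, 541 and 539 CPM in HKO (log2 fold change 0.65, SE 0.131 and adjusted p = 0.0564 in edgeR, adjusted p = 0.000438 in DESeq2). Alas1, the first enzyme of haem synthesis, was at 1410, 1520 and 634 CPM in the controls and at 647, 587 and 538 CPM in HKO, where control replicate 3 lay among the HKO mice (edgeR log2 fold change -1.01, SE 0.273, adjusted p = 0.137). In the LKO cohort Alas1 was at 902 to 1280 CPM in controls and at 519, 619, 908 and 1010 CPM in LKO replicates 1 to 4 (adjusted p = 0.999), and Atf5 was at 307 to 370 against 274 to 420 CPM.

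The cohort controls themselves differed for some members. Hspe1 was at 110 to 131 CPM in the 3 AAV8-TBG-Null controls and at 138 to 231 CPM in the 4 LKO-cohort controls. Trap1 and Spg7 were lower in the virus-treated controls too, at 189 to 205 against 225 to 247 CPM and at 54.4 to 56.1 against 59.4 to 72.9 CPM. These 3 of 10 members did not overlap, and 26.6% of all genes did not. Virus, cohort and litter cannot be told apart in this contrast. The tests of HKO used only their own controls, and levels of the 2 cohorts set side by side are descriptions.

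**Figure D2:**
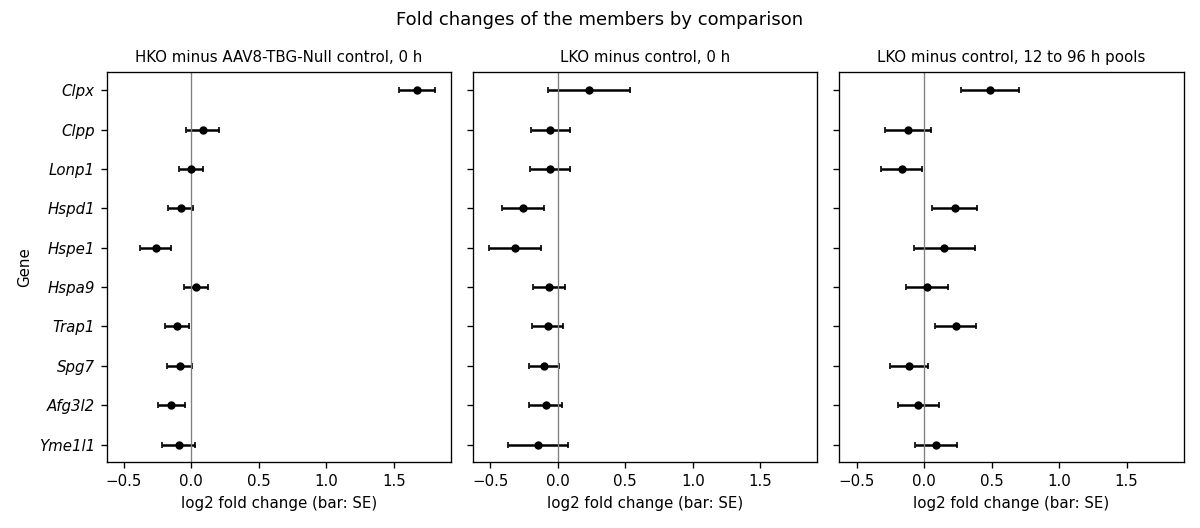
Log2 fold changes of the members (x axis; bars are SE) in HKO against AAV8-TBG-Null controls at 0 h, LKO against controls at 0 h and LKO against control pools over 12 to 96 h. Clpx in HKO lies at 1.67, and the other 9 members in that panel lie between -0.26 and 0.09.

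In LKO livers at 0 h, which the choice of genes did not use, Clpx was spread widely in both groups. It was at 94.9, 161, 194 and 145 CPM in the 4 controls and at 209, 260, 106 and 120 CPM in the 4 LKO mice. LKO replicates 1 and 2 were above all controls, while LKO replicates 3 and 4 were within their range. The log2 fold change was 0.23 with an SE of 0.304 (adjusted p = 0.999), and without LKO replicate 2 it was -0.04, on the other side of 0. Of the 10 members, 0 were called by edgeR and 0 by DESeq2, and 0 had an unadjusted p under 0.05. Over all 12426 genes 0% were called. The values of LKO and control mice overlapped for all 10, against 1.75% of genes that did not overlap. The values farthest from 0 were those of the HSP60 chamber, Hspe1 (log2 fold change -0.32, SE 0.194) and Hspd1 (-0.25, SE 0.156). Hspd1 was at 571, 735, 741 and 546 CPM in the controls and at 522, 458, 596 and 595 CPM in LKO, so the ranges overlapped. Hspa9 was the steadiest member, at 607 to 661 CPM in the controls and 566 to 667 CPM in LKO. Of the 47 further quality genes, 0 were called by either tool, and 1 had an unadjusted p under 0.05, against 2.83% of all genes.

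Library depth and marker levels also varied among these 8 mice. Control replicate 3 and LKO replicate 1 had the fewest reads on genes (12665686 and 13671993) and the most unmapped reads (20.6% and 13.5%), while LKO replicate 2, with the highest Clpx, had 17794276 reads on genes and 4.37% unmapped. LKO replicate 1 also had the lowest hepatocyte marker sum (46200 CPM) and the highest macrophage marker sum (368 CPM). The sum of 3 proliferation markers did not overlap between the groups, at 1.65 to 2.61 CPM in the controls and 3.1 to 6.49 CPM in LKO. The hepatocyte, macrophage, neutrophil, stellate, endothelial, cholangiocyte and lymphocyte sums overlapped. The part of these differences in the Clpx values was not tested.

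The LKO effect was then set against the HKO effect. For the 9 members other than Clpx, the difference between the 2 effects ranged from -0.18 (Hspd1, SE 0.197) to 0.06 (Afg3l2, SE 0.156) on the log2 scale. None was called, 0 had an unadjusted p under 0.05, and DESeq2 called 0; 0% of 12945 genes were called. For Clpx the LKO effect was 1.44 log2 units below the HKO effect (SE 0.402), which is a description, since the HKO contrast chose the gene.

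Some clock transcripts varied with Clpx in these mice. The hepatocyte clock is a feedback loop in which BMAL1 (encoded by Arntl) and CLOCK drive Per and Cry repressors and the output factors Dbp, Tef and Hlf. In HKO, in the contrast that chose Clpx, clock genes were among those called, with Arntl higher (log2 fold change 2.24, SE 0.249) and Dbp (-2.70, SE 0.403), Per3 (-2.40, SE 0.166), Per2 (-1.65, SE 0.198), Tef (-1.18, SE 0.178) and Nr1d2 (-0.72, SE 0.0929) lower. Dbp was at 95.1, 105 and 75.3 CPM in the AAV8-TBG-Null controls and at 25, 6.17 and 10.9 CPM in HKO. Clpx was at 94.9, 161, 194 and 145 CPM in control replicates 1 to 4 of the LKO cohort and at 209, 260, 106 and 120 CPM in LKO replicates 1 to 4. Dbp was, in the same order, at 127, 85.9, 29.6 and 119 CPM and at 45.7, 28.5, 101 and 121 CPM, so that it was low in control replicate 3 and in LKO replicates 1 and 2, and the genotypes overlapped. Arntl was at 3.6, 2.51, 8.5 and 2.4 CPM in the controls and at 12.6, 8.33, 3.63 and 2.03 CPM in LKO, where the same 3 mice were highest.

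**Figure D3:**
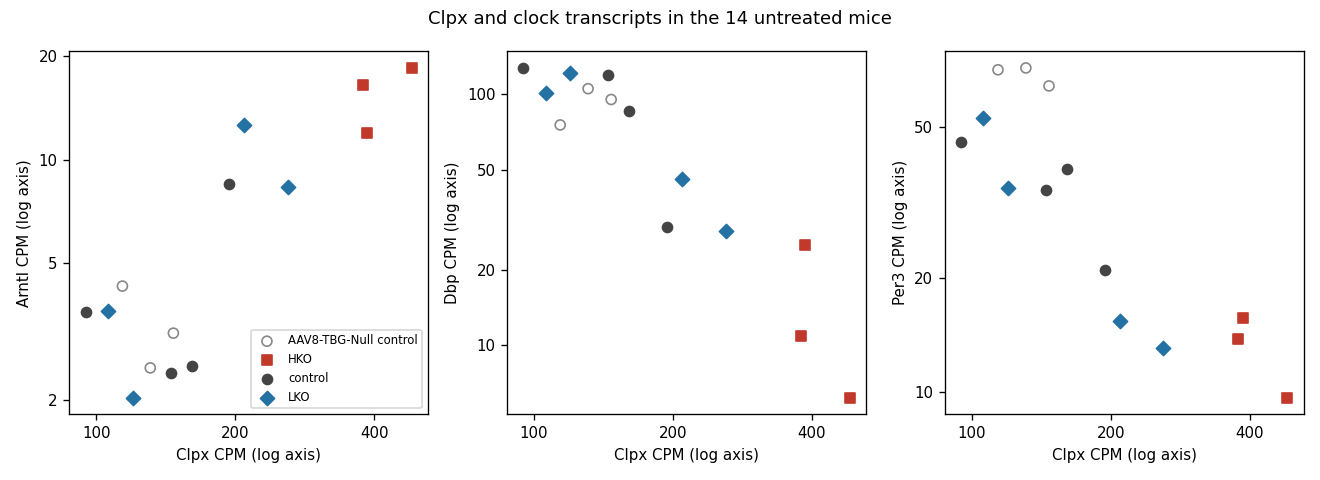
Clpx (x axis, CPM, log axis) against Arntl, Dbp and Per3 (y axes, CPM, log axes) in the 14 untreated mice, marked by group. The 3 HKO mice, at 378 to 483 CPM of Clpx, are those on which Clpx was chosen, so the spread they add is a description; within the LKO cohort, control replicate 3 (194 CPM of Clpx) lies beside LKO replicates 1 and 2 (209 and 260 CPM).

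Per3, a clock repressor, was at 45.8, 38.7, 21 and 34.2 CPM in the 4 controls and at 15.4, 13.1, 52.7 and 34.5 CPM in the 4 LKO mice, and was also low in control replicate 3 and LKO replicates 1 and 2. Over the 8 mice of the LKO cohort, Pearson's r of log2 CPM with Clpx was -0.931 for Per3, -0.894 for Dbp, -0.884 for Tef and 0.712 for Arntl, as a description over mice of 1 cohort, with no test. It was -0.805 for Per2, -0.689 for Nr1d1, -0.642 for Nr1d2, -0.533 for Bhlhe41, 0.541 for Nfil3, 0.595 for Clock and 0.682 for Npas2. For Ciart, Cry2, Hlf, Per1 and Cry1 it was nearer to 0, at -0.468, -0.411, -0.211, -0.17 and 0.189. By r over the 8 mice, Arntl came 283rd from the top among 9559 genes. Over the 18 LKO-cohort libraries, pools included, r was weaker for some of these genes. It was -0.614 for Per3, -0.486 for Dbp, -0.478 for Tef, -0.201 for Per2 and 0.649 for Arntl. For Clock it was stronger, at 0.697, and for Cry1 it was 0.193. For Nr1d1, Per1 and Hlf it was on the other side of 0, at 0.051, 0.21 and 0.0741. Library depth differed among these mice as given above. Over the 8 mice r was between -0.781 (Hspa9) and 0.359 (Yme1l1) for the other members. The part of collection time in the Clpx difference was not tested, since that time is not given. Nr1d1, another clock repressor, was at 131 to 141 CPM in the AAV8-TBG-Null controls and 107 to 170 CPM in HKO, with overlap.

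Genes whose log2 CPM was most like that of Clpx over the 18 LKO-cohort libraries were Fem1a, Lcmt2, Pdha1, Slc45a3, Ubox5, Cdk20, Trim2, Cwc22, Clock and Ints1, with r from 0.693 to 0.753 among 9559 genes of at least 5 CPM. Those least like it were Nat8, Terf1, 1600020E01Rik, Arl16 and Arrb2, with r from -0.748 to -0.658. The order depended on the libraries, since 0 of the 10 were among the 10 highest over the 14 mice and 2 were over all 24 libraries. The other members had r from -0.0469 (Hspe1) to 0.329 (Afg3l2).

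After APAP, Clpx did not pass the test between LKO and control pools. The control pools held 180, 189, 114, 96.9 and 94.7 CPM of Clpx at 12, 24, 48, 72 and 96 h. The LKO pools held 225, 167, 191, 116 and 252 CPM. Thus LKO was higher at 4 of 5 times, most at 96 h (log2 ratio 1.41), and lower at 24 h (-0.179). In the fit over the 5 times, with time as a block, the log2 fold change was 0.49 (SE 0.215, adjusted p = 0.269). Of the 10 members 0 were called, against 0.579% of 12782 genes, and 1, Clpx, had an unadjusted p under 0.05, while DESeq2 called 0. LKO was on the same side of control at all 5 times for 0 of 10 members, against 17.1% of all genes. Hspd1 was higher in LKO at 12 to 72 h (log2 ratios 0.187, 0.499, 0.414 and 0.376) and lower at 96 h (-0.24). Hspe1 was higher at 12, 24 and 48 h (0.788, 0.272 and 0.691) and lower at 72 and 96 h (-0.224 and -0.677). Each of these ratios rests on 1 pool per genotype. Of the 47 further quality genes, 0 were called by edgeR and 4 had an unadjusted p under 0.05, against 17.9% of all genes, while DESeq2 called 1 (4.74% of all genes), Atf4 (log2 fold change -0.68, adjusted p = 0.0131, against 0.106 in edgeR).

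**Figure D4:**
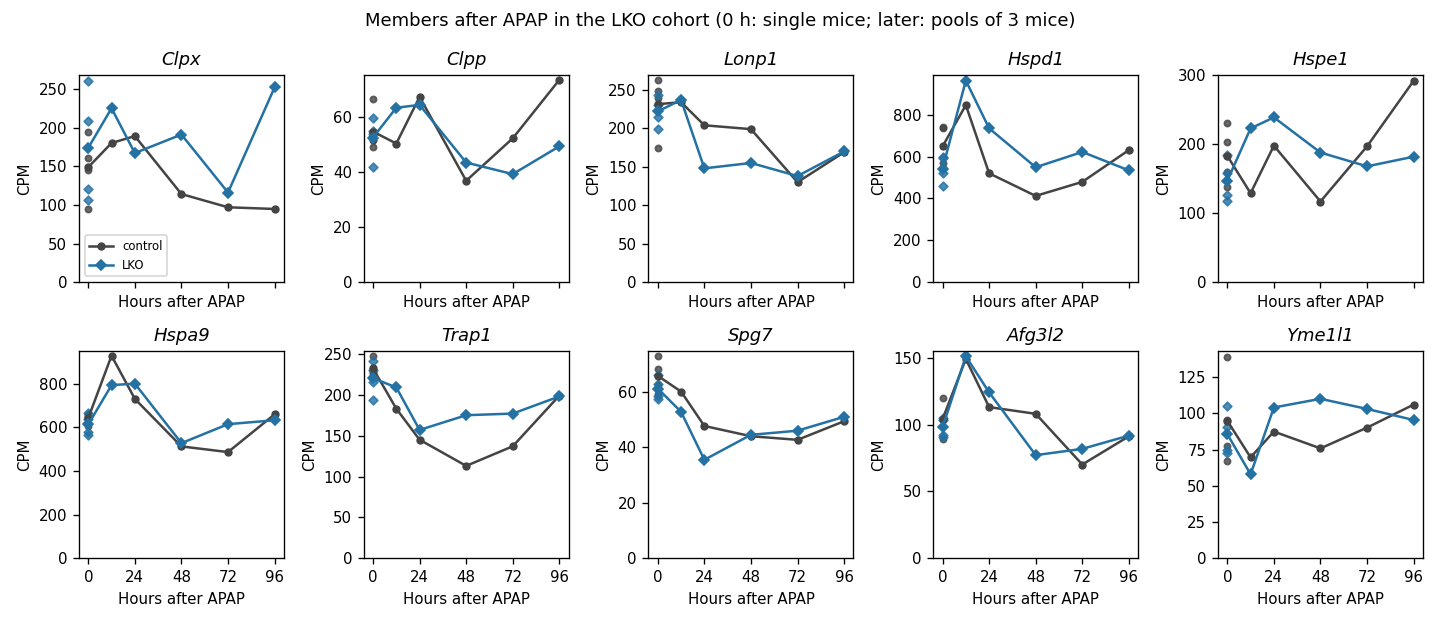
CPM of each member (y axes start at 0) against hours after APAP in the LKO cohort; points at 0 h are single mice, the lines run from their mean through 1 pool of 3 mice per time. Hspd1, Hspa9 and Afg3l2 peak at 12 h or, for Hspa9 in LKO, at 24 h, while Trap1 and Spg7 lie below their 0 h means from 24 h on.

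Hspd1 and Afg3l2 rose at 12 h after APAP, taken over both genotypes. Hspd1 was at 846 CPM in the control pool and 963 CPM in the LKO pool, above all 8 mice at 0 h (458 to 741 CPM). Its log2 fold change was 0.63 (SE 0.201, adjusted p = 0.0224). Afg3l2 was at 149 and 151 CPM, against 88.8 to 120 CPM at 0 h, with a log2 fold change of 0.61 (SE 0.142, adjusted p = 0.00384). Hspa9 was at 929 and 794 CPM, against 566 to 667 CPM at 0 h. Its log2 fold change of 0.49 (SE 0.143, adjusted p = 0.0147) passed the adjusted p but not the 1.5-fold limit. Hspe1, the partner of Hspd1, did not move with it in the control pool, which was at 129 CPM against 138 to 231 CPM in the 4 control mice, while the LKO pool was at 223 CPM. Yme1l1, at 69.6 and 57.9 CPM, had a log2 fold change of -0.47 (SE 0.248, adjusted p = 0.147).

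At 12 h, 2 of 10 members were called higher, against 16.7% of all genes, and 0 were called lower, against 14.3%. Without the fold limit 3 members passed, against 34.8% of all genes. For a list of 10 these counts are close to the background. Both calls lay near the fold limit. Without LKO replicate 2 the log2 fold change of Hspd1 was 0.57, and without control replicate 3, LKO replicate 1 or LKO replicate 3 that of Afg3l2 was 0.58, all under 1.5-fold with adjusted p-values still under 0.05. Across its 16 alternatives the adjusted p ranged from 0.0077 to 0.292 for Hspd1 and from 0.000393 to 0.0949 for Afg3l2, with the highest values in the control libraries alone.

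Trap1 was called lower at 24 and 48 h and Spg7 at 24 h, while their values at later times passed the adjusted p but not the 1.5-fold limit up to 72 h. Trap1 was at 145 CPM in the control pool and 157 CPM in the LKO pool at 24 h, against 194 to 247 CPM in the 8 mice at 0 h. The log2 fold change was -0.59 at 24 h (SE 0.165, adjusted p = 0.0135), -0.67 at 48 h (SE 0.166, adjusted p = 0.0113) and -0.54 at 72 h (SE 0.165, adjusted p = 0.0298). The 48 h value rested more on the control pool (113 CPM) than on the LKO pool (175 CPM). Spg7 was at 47.7 and 35.5 CPM at 24 h, against 57.3 to 72.9 CPM at 0 h. Its log2 fold change was -0.62 at 24 h (SE 0.14, adjusted p = 0.00363), -0.52 at 48 h (adjusted p = 0.0157) and -0.52 at 72 h (adjusted p = 0.0154). Afg3l2, its partner in the m-AAA protease, had log2 fold changes of 0.23 at 24 h (adjusted p = 0.256), -0.13 at 48 h (adjusted p = 0.574) and -0.41 at 72 h (adjusted p = 0.0693), and the difference between the partners was not tested. Lonp1 fell at 72 h, to 130 CPM in the control pool and 138 CPM in the LKO pool, from 174 to 263 CPM at 0 h (log2 fold change -0.76, SE 0.172, adjusted p = 0.00554).

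The counts at these times were again set against all genes. At 24 h, 0 of 10 members were called higher (13.9% of genes) and 2 lower (11.7%), and 2 passed without the fold limit (28.6%). At 48 h, 0 were called higher (9.89%) and 1, Trap1, lower (6.52%), and 2 passed without the fold limit (17.7%). At 72 h, 0 were called higher (11%) and 1, Lonp1, lower (5.77%), and 3 passed without the fold limit (18.3%). At 96 h, 0 of 10 were called by edgeR and 0 by DESeq2, against 0.462% of 13855 genes, and 2, Lonp1 and Spg7, had an unadjusted p under 0.05. Without control replicate 1 or control replicate 3, the log2 fold change of Trap1 at 24 h was -0.57 and -0.58 and under 1.5-fold. With scaling by library size, the median log2 fold change of all genes was 0.143 at 24 h and 0.198 at 48 h, and Trap1 (-0.45 and -0.49) and Spg7 (-0.47 at 24 h) were no longer 1.5-fold lower. That scaling moved the share of higher calls among all genes from 54.3% to 69.2% at 24 h, from 60.2% to 81.6% at 48 h and from 65.6% to 80.7% at 72 h.

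Other genes of the mitochondrial quality system were called in both directions after APAP. At 12 h, 6 of 47 were called higher and 9 lower, against 16.7% and 14.3% of all genes, so the share lower was above that of all genes and the share higher below it. Pdk4, a kinase of pyruvate dehydrogenase, had the largest rise (log2 fold change 4.13, SE 0.592), followed by the stress factors Ddit3 (CHOP, 2.25, SE 0.349) and Atf4 (1.22, SE 0.26). The largest falls were in Immp1l, a subunit of the inner membrane peptidase (-1.56, SE 0.289), Romo1 (-1.15, SE 0.357) and Mipep, an import peptidase (-1.10, SE 0.202). Atf5 was not called after APAP at 12 h (0.31, SE 0.209, adjusted p = 0.254). By group, 5 of 13 other peptidases fell and 0 rose at 12 h, 3 of 10 stress regulators rose and 1 fell, and 1 of 11 co-chaperones rose and 0 fell. Of 5 scaffolds 0 rose and 2 fell, and of 8 reported substrates 2 rose and 1 fell. These groups are small, and nothing particular to a group is read from its count.

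At 24 h, 4 of the 47 were higher and 5 lower (13.9% and 11.7% of all genes), with Pdk4 (4.45, SE 0.615), Atf4 (1.05, SE 0.261) and the ribosomal protein Mrpl32, which the m-AAA protease processes (0.67, SE 0.182), the largest rises. Ppargc1a (-1.15, SE 0.4), Eif2ak1 (-0.84, SE 0.149) and Bcs1l (-0.78, SE 0.207) had the largest falls. At 48 h, against 9.89% and 6.52% of all genes, 1 was higher, Pdk4 (3.75, SE 0.658), and 2 were lower, the serine protease-like Lactb (-0.86, SE 0.173) and the co-chaperone Dnaja3 (-0.66, SE 0.206). The 48 h value of Pdk4 rests on the control pool, at 192 CPM, since the LKO pool was at 5.82 CPM, within the 4.89 to 7.64 CPM of the LKO mice at 0 h. At 72 h, against 11% and 5.77% of all genes, 1 was higher, Dnajc19 (0.62, SE 0.163), and 3 were lower, Alas1 (-1.84, SE 0.476), Hsf1 (-0.69, SE 0.177) and Dnaja3 (-0.62, SE 0.206). At 96 h, 0 of the 47 were called by edgeR and 8 had an unadjusted p under 0.05 (15.4% of all genes), while DESeq2 called 2 (2.44% of all genes), Dnajc15 (0.81) and Dnajc19 (0.62).

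Markers of hepatocytes and of other cells were called in both directions after APAP. At 12 h, 1 of 6 hepatocyte, 1 of 6 macrophage, 3 of 5 stellate cell and fibroblast and 1 of 4 endothelial markers were called lower and 0 higher. Of 3 proliferation markers, 2 were lower at that time. Among all genes, 14.3% were called lower and 16.7% higher at 12 h. For lists this small, counts near these shares are not read as results. At 24 h, 2 of 6 hepatocyte, 2 of 6 macrophage and 2 of 5 stellate markers were lower and 1 of each was higher. Among all genes, 11.7% were lower and 13.9% higher at 24 h. Of 4 endothelial markers, 2 were lower at 24, 48 and 72 h. The hepatocyte enzyme Cyp2e1 was at 4910 to 9820 CPM in the 8 mice and at 1200 CPM in the control pool and 2490 CPM in the LKO pool at 24 h. At 48 h 2 macrophage and 2 stellate markers were higher, and at 72 h 3 and 4 were. Among all genes, 9.89% were higher and 6.52% lower at 48 h, and 11% and 5.77% at 72 h. Of 6 hepatocyte markers, 1 was lower at 48 h. Of 4 cholangiocyte markers, 1 was higher and 1 lower at 48 h, and 1 was lower at 72 h. Of 3 T and B cell markers, 1 was higher at 72 h. The summed level of 6 macrophage markers was 143 to 368 CPM in the 8 mice of the LKO cohort, 107 to 151 CPM in the pools at 12 and 24 h and up to 803 CPM later. For 5 stellate cell and fibroblast markers it was 125 to 232 CPM, 150 to 256 CPM at 12 and 24 h and up to 878 CPM later. For the 3 neutrophil markers in the files it was 0.749 to 6.77 CPM and up to 25.3 CPM, and 2 of 3 were called higher at 12 h and 3 of 3 at 24 h. The 3 proliferation markers summed to 1.65 to 6.49 CPM at 0 h, to 71.2 and 127 CPM in the control pools at 48 and 72 h and to 64.9 and 133 CPM in the LKO pools, with 3 of 3 called higher at both times. Their part in the member values was not tested. At 0 h in the HKO cohort, these sums overlapped between HKO and the AAV8-TBG-Null controls for macrophage, stellate, endothelial, neutrophil, cholangiocyte and proliferation markers. The sum of 3 T and B cell markers did not overlap, at 4.97 to 6.35 CPM in the controls and 8.34 to 11.8 CPM in HKO. Of these markers, Cd3e was at 0.184 to 0.414 CPM in the controls and at 6.12, 0.382 and 3.36 CPM in HKO. Single genes did not overlap between groups of this size for 18% of those tested. The part of this sum in the Clpx values was not tested.

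Ratios between partners give levels that do not depend on library scaling. The ratio of Clpx to Clpp in the LKO cohort at 0 h, as log2 of the counts, was 1.41 ± 0.463 (SD, n = 4) in controls and 1.64 ± 0.559 (n = 4) in LKO. The difference of 0.234 was not beyond the spread (exact permutation test, 2-sided p = 0.571, adjusted p = 0.714 over 2 ratios; the smallest p that 70 arrangements allow is 0.0286). For Hspd1 to Hspe1 it was 1.84 ± 0.127 in controls and 1.9 ± 0.247 in LKO, a difference of 0.0624 (exact permutation p = 0.714, adjusted p = 0.714, n = 4 per group). In CPM, Hspd1 was 3.19 to 3.94 times Hspe1 in the LKO-cohort controls, 4.7 to 5.88 times in the AAV8-TBG-Null controls and 5.81 to 6.52 times in HKO. In the control pools the ratio was 6.56, 2.63, 3.54, 2.44 and 2.16 at 12, 24, 48, 72 and 96 h, above the range of the 4 control mice at 12 h, within it at 48 h and below it at the other times. In the LKO pools it was 4.32, 3.08, 2.92, 3.69 and 2.93, against 3.23 to 4.68 in the 4 LKO mice, so the 12 h value lay within that range.

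**Figure D5:**
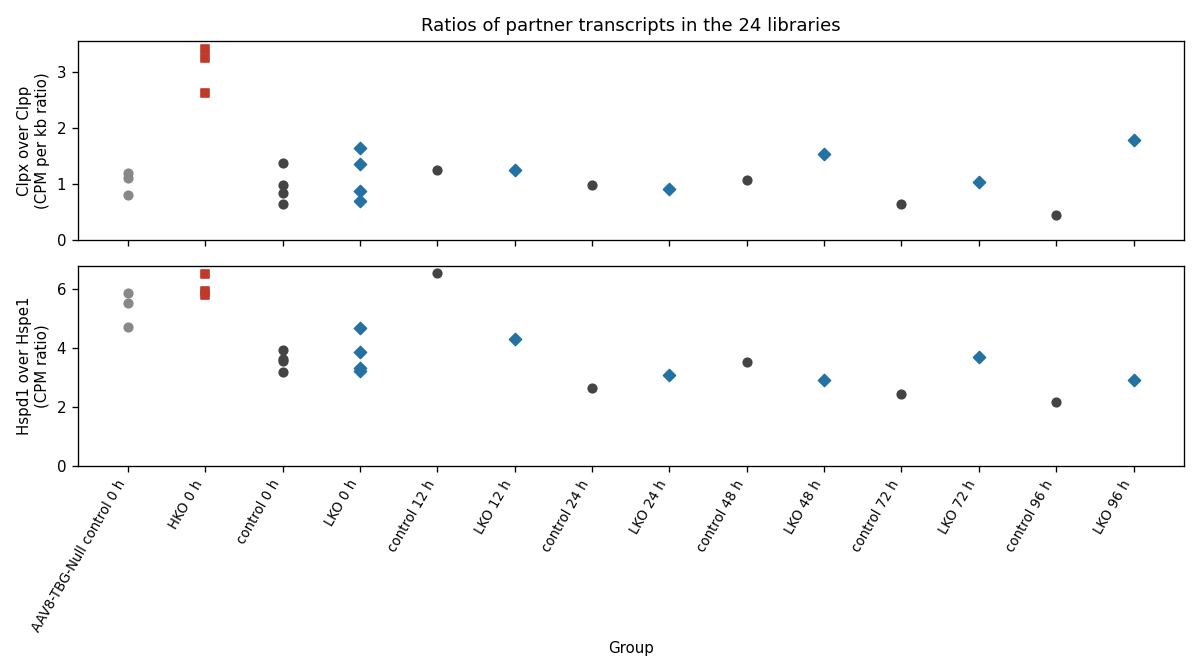
Ratio of Clpx to Clpp (top, CPM per kb of exon) and of Hspd1 to Hspe1 (bottom, CPM) in each of the 24 libraries by group; y axes start at 0. The HKO mice sit at 2.64 to 3.42 in the top panel, above the other libraries, and the control pool at 12 h (6.56) has the highest value in the bottom panel.

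Over all 24 libraries Clpx had a 5.1-fold range, from 94.7 CPM in the control pool at 96 h to 483 CPM in HKO replicate 2. The top of this range lies in the HKO mice on which Clpx was chosen, so its width is a description. Among the mice of the LKO cohort at 0 h, Clpx ranged 2.74-fold. Over the 24 libraries Hspe1 ranged 3.37-fold, from 86.5 CPM in HKO replicate 1 to 292 CPM in the control pool at 96 h. The other 8 members ranged 1.91-fold (Hspa9) to 2.39-fold (Yme1l1), against a median of 2.63-fold over 5901 genes of at least 20 CPM.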

How the data were processed

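Gene counts of 24 whole-liver RNA libraries were used. The authors deposited raw counts per gene as STAR wrote them, from reads cleaned with Trimmomatic and mapped to mm10, with no scaling. The annotation version is not given in the sources used here. STAR counts uniquely mapped reads only, and the column that disregards strand was used, so reads shared with near-identical copies or overlapping genes, such as the overlapping ends of Hspd1 and Hspe1, are uncertain. The 4 entries that name no gene (18.7% to 39.9% of reads per library) were left out.

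Tests were run in edgeR 4.0.16 under R 4.3.3 (filterByExpr, TMM scaling, quasi-likelihood test, Benjamini-Hochberg adjustment over all genes tested). Calls needed an adjusted p under 0.05 and a change of 1.5-fold or more. HKO and LKO mice were each compared with their own controls at 0 h, LKO pools with control pools with time as a block, and APAP times with 0 h in the 18 libraries of the LKO cohort with genotype as a term. Likeness used log2 CPM with a prior count of 2. Pools count as 1 library, and their p-values assume that a pool of 3 mice varies like a single mouse. Intervals from counting do not include the spread between mice. Exon lengths are from GENCODE vM21. Scripts were tested on simulated data.

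The members and gene lists were chosen with earlier results of these data known, and the promoter motifs after the files were read. Named are all members, up to 3 called genes with the largest rise and 3 with the largest fall from the quality lists, clock genes, and the 10 genes most and 5 least like Clpx, beside Atf5, Alas1, Pdk4 and Immp2l in HKO. Alternatives were DESeq2 1.42.0, RLE scaling, scaling by library size, 2 filters, a stranded column, no fold limit, other blocks and fits, and leaving out each mouse or time. Replicate numbers did not pair the mice.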

Additional observations from a re-analysis of the deposited data

Results flagged for a closer look

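Clpp in control replicate 2 of the LKO cohort, at 66.3 CPM, lay apart from the other 3 control mice at 0 h, which were at 49 to 51.7 CPM, by Dixon's criterion (0.844 against a critical value of 0.829). It was 1 of 20 groups tested in this way, and chance flags about 1 in 20.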

How the results depend on the processing

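Of the 9 members other than Clpx, none was called in HKO or in the difference between the effects, and of all 10 none was called in LKO at 0 h or in the pools, under any of the alternatives run, and no fold change past the threshold changed sign. The main counts of members called after APAP were 2, 2, 1, 1 and 0 at 12, 24, 48, 72 and 96 h. At 12 h the count was 1 with no filter beyond 1 count, 0 in the control libraries alone, 0 in the LKO libraries alone, and 1 to 2 without single mice. At 24 h it was 0 with scaling by library size, 1 with at least 10 counts in every library, 0 in the control libraries alone, 0 in the LKO libraries alone, and 1 to 2 without single mice. At 48 h it was 2 with no fold limit, 0 with scaling by library size and 0 in the LKO libraries alone. At 72 h it was 3 with no fold limit, 0 in the control libraries alone and 0 in the LKO libraries alone. These fits of 1 genotype hold 1 pool per time and fewer samples. Of 1430 alternative fold changes of the members, 1339 kept their direction and side of the threshold, 22 lost the threshold and 69 moved, most of them uncalled values that changed sign. The log2 ratio of Hspd1 to Hspe1 in LKO minus control was -0.0465 to 0.132 without single mice, with the negative value without LKO replicate 3, and that of Clpx to Clpp was 0.0338 to 0.441.

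Mice with the same replicate number did not deviate together (r of -0.0308 to 0.198 over 3 pairs in the HKO cohort and -0.38 to 0.224 over 4 pairs in the LKO cohort). With the replicate number as a block, 0 members were called in HKO, LKO and the difference. The differences in the ratios, 0.234 and 0.0624, cannot change under such a block, and the exact permutation p from sign flips was 0.75 and 0.875 (the smallest that 16 arrangements allow is 0.125). For times after APAP against 0 h, no paired analysis was possible because pools carry no replicate number. LKO and control pools were compared with time as a block, and 0 members were called with no time block too.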
